A study of Mus musculus with 18 samples.

Results

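Solute carriers are a large group of membrane transport proteins, and their genes carry the symbol stem Slc followed by a family number. The genes described here are those whose mouse symbol starts with Slc and a digit and that have a line in the deposited table of library-scaled values, leaving out Slc22a18, Slc38a4, antisense genes and pseudogenes. This gave 219 genes of the 15386 in that table. By the same naming rule 368 Slc genes stand in the deposited count table of 47643 genes, and the other 149 had a summed count under 90 over all libraries. The names Slc4a1ap, Slc9a3r1 and Slc9a3r2 belong to proteins that bind carriers and carry nothing themselves, so 216 of the 219 genes encode carriers. Polyadenylated RNA was sequenced from MPC3, a mouse prostate cancer cell line, in 18 libraries that form 3 groups of 6. The control group is labelled plko and Control, and the others carry a short hairpin RNA against Rnf185, a ubiquitin ligase of the endoplasmic reticulum membrane, called shRNF185.1 or shRNF185.3 and labelled RNF185 KD. How the hairpins were delivered and whether the cells are clones is not given in the sources used here. Each of 3 batches in the labels holds 2 libraries of every group. The labels do not say whether libraries of a group came from separate cultures, so p-values here measure the spread between these libraries, which may be technical.

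Solute carriers move sugars, amino acids, ions, metals, vitamins, nucleotides and lipids across the plasma membrane and across organelle membranes, either down a gradient or coupled to sodium, protons or an exchanged solute. Many plasma membrane carriers depend on the sodium gradient, several amino acid and lactate carriers need a glycoprotein partner to reach the surface, the Slc25 family serves the mitochondrial inner membrane, and the Slc35 family supplies the Golgi and the endoplasmic reticulum with sugar nucleotides. Prostate epithelium is known for its high content of zinc and citrate, and the symbols of its zinc importers (Slc39) and of the mitochondrial citrate carrier (Slc25a1) fall within this group.

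Library totals ran from 22027395 to 43379662 counts, and a count of 3 corresponded to between 0.0692 and 0.136 CPM (counts scaled to library size, as deposited). Rnf185 was at 33.6, 36.2 and 38.4 CPM in control (lowest, median and highest of 6 libraries), 5.21, 5.63 and 6.8 CPM under shRNF185.1 and 5.19, 5.73 and 6.72 CPM under shRNF185.3, so every hairpin library lay below every control library. Of the epithelial markers looked up, Krt8, Krt18, Krt14 and Cdh1 were present while Epcam and Krt5 have no line in the scaled table. Of the prostate markers Hoxb13 was present, and Pbsn and Tmprss2 have no line. None of the leukocyte markers Ptprc, Cd3e and Adgre1 has a line there, and the endothelial markers summed to at most 0.706 CPM in a library. The 4 epithelial markers summed to between 1460.1 and 1765 CPM in control libraries, 904 to 1175 CPM under shRNF185.1 and 973 to 1041 CPM under shRNF185.3, and 4 and 3 of them were lower than control with the respective hairpin. Of 3 mesenchymal markers 1 rose with each hairpin, and of 2 tested stromal markers 1 fell under shRNF185.1 and 1 rose under shRNF185.3. Their part in the results below was not tested. In bulk RNA fewer cells with a transcript and less transcript per cell cannot be told apart.

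A few short sequences from some of the named genes are shown first, since they locate genes that the values below return to. The iron exporter gene Slc40a1 carries in its 5′ UTR an element that is known to bind iron regulatory proteins, and a search of exonic sequence for a C, 5 bases, CAGTG, a base other than G and 5 bases that pair with the first 5 found 17 bases at chr1:45925471-45925487 on the minus strand of GRCm38.
Slc40a1: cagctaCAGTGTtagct
The capitals mark the 6 bases of the loop. The pattern was present in 5 of 219 Slc genes (2.28%) and in 215 of 14263 (1.51%) of the genes that were tested and have a transcript in the annotation searched, and the other 4 Slc genes with it were Slc10a7, Slc35e1 and Slc6a6, in their 3′ UTRs, and Slc4a3, in its coding sequence. Slc11a2, whose 3′ UTR is known for an element of the same kind with a bulge, was not matched by this strict pattern.

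For the iodide carrier gene Slc5a5, the serotonin carrier gene Slc6a4 and the thiamine carrier gene Slc19a2, the 250 bases before the start of the RefSeq gene on GRCm38.p6 are given. They are the gene with the largest fall with both hairpins, the gene that differed most between the hairpins and a gene that fell with both, and their windows lie at chr8:70892758-70893007 on the minus strand, chr11:76998347-76998596 on the plus strand and chr1:164248796-164249045 on the plus strand.
Slc5a5: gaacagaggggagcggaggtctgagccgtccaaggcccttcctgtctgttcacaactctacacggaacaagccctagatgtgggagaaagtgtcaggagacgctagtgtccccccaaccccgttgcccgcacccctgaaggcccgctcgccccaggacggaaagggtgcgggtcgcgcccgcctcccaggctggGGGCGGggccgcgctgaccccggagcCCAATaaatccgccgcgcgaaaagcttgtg
Slc6a4: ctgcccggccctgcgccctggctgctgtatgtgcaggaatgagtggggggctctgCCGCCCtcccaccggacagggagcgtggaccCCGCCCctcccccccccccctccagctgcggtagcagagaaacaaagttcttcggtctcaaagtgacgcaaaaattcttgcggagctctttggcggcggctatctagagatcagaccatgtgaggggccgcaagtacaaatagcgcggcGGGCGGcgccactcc
Slc19a2: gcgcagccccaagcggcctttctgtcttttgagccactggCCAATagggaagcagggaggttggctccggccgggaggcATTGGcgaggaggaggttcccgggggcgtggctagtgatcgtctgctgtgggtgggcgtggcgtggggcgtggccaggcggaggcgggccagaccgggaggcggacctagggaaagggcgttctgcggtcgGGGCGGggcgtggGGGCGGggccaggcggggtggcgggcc
Capitals mark matches on either strand to GGGCGG, a GC box, and to CCAAT, a box of that name. The search also covered the letters TATAAA of the core promoter, the motif TGANTCA known for AP-1, the E-box CACGTG and the cyclic AMP element TGACGTCA, and none of these 4 is in the 3 windows. RefSeq promoters were matched for 167 of the 219 genes, with 223 start sites. GGGCGG was in 58.7% of those promoters and in 32.7% of all 32851, CCAAT in 33.2% and 33.8%, TATAAA in 5.83% and 12.4%, CACGTG in 11.2% and 6.02%, TGANTCA in 6.73% and 6.75%, and TGACGTCA in 1.35% and 1.55%. The Slc genes had to have a line in the scaled table and the genes of the other promoters did not, so the sets are not alike in expression. The part of this in the shares was not tested. These are matches of letters and say nothing of a factor's binding.

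In control cells the mean level of the Slc genes was under 1 CPM for 33 genes, from 1 to 10 CPM for 49, from 10 to 100 CPM for 105 and at 100 CPM or more for 32, with a median of 22.8 CPM against 20.5 CPM over all genes of the table. Their summed level was 11649 ± 183 CPM in control, 11502 ± 243 CPM under shRNF185.1 and 11188 ± 102 CPM under shRNF185.3 (SD, n = 6 each), which is 1.15%, 1.16% and 1.12% of the counts of a library. Levels were compared between genes per kb of exonic length. The adenine nucleotide translocases led, with Slc25a5 at 427 and Slc25a4 at 218 CPM per kb in control, followed by the zinc carrier Slc39a7 at 111, the mitochondrial phosphate carrier Slc25a3 at 107, the nucleoside carrier Slc29a1 at 96.2 and the amino acid carrier subunit Slc3a2 at 75 CPM per kb. Some of these levels are uncertain, because reads of 75 bases can match other genes: 71.6% of the 75-base windows of Slc39a7 also occur in Gm20427, 19.8% of those of Slc25a5 in pseudogenes, and 17.9% of those of the zinc importer Slc39a1 in a pseudogene. Whether the counting used strand is not given in the sources used here, so reads from overlapping antisense genes cannot be told apart.

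**Figure D1:**
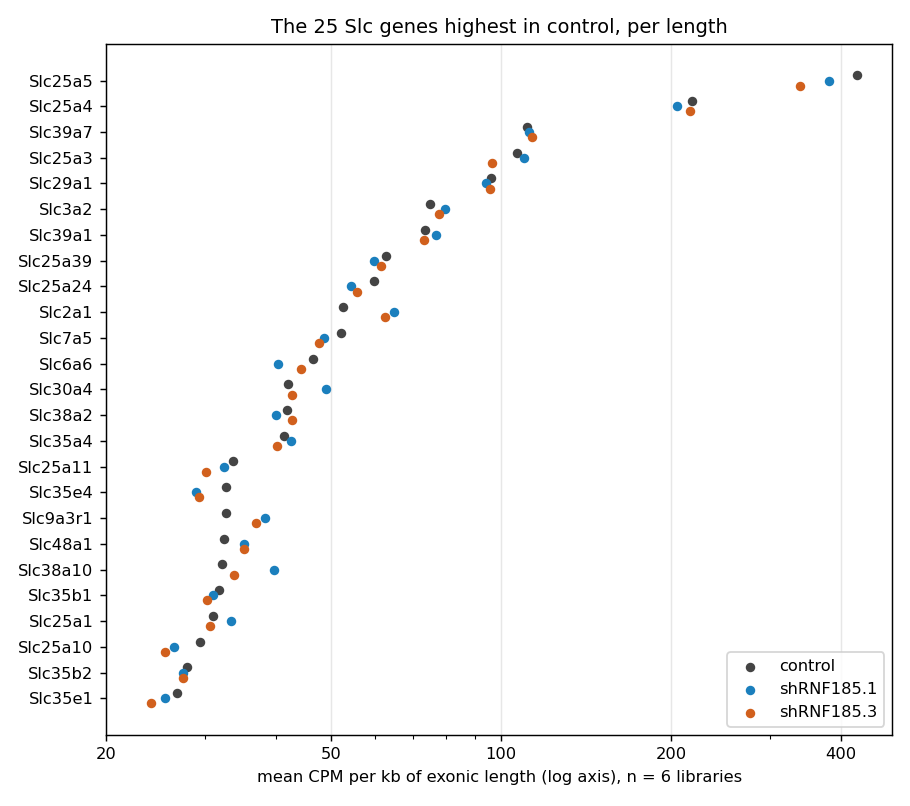
Mean level of the 25 Slc genes highest in control, in CPM per kb of exonic length on a log axis, for control, shRNF185.1 and shRNF185.3 (each point the mean of 6 libraries). Slc25a5 stands highest in all 3 groups, at 427 CPM per kb in control, 380.2 under shRNF185.1 and 338 under shRNF185.3, and the groups lie close together for most genes.

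The levels of 207 of the 219 genes passed the filter on low counts and were tested with edgeR's quasi-likelihood test with Benjamini-Hochberg adjustment over all 14309 genes tested. A gene is said to have risen or fallen where its adjusted p was under 0.05. With shRNF185.1, 34 of the 207 were higher and 30 lower than control, against 28.9% of all genes tested in either direction (14.6% higher and 14.3% lower). With shRNF185.3, 22 were higher and 31 lower, against 27.3% of all genes (14.2% higher and 13.1% lower). Averaged over the hairpins, 29 rose and 34 fell, against 32.9% of all genes. The Slc genes were therefore called at shares of 30.9%, 25.6% and 30.4%, each near the share of all genes. A log2 difference of at least 1 in size was also reached by 3, 5 and 2 of the called Slc genes in these comparisons, against 3.68%, 3.92% and 3.52% of all genes tested. The sizes were also near those of other genes: the median absolute log2 difference of the Slc genes was 0.17 under shRNF185.1 and 0.15 under shRNF185.3, against 0.16 and 0.15 over all genes tested. Their median signed difference was 0.005 and 0.007, against -0.017 and -0.019. Both hairpin groups are compared with the same 6 control libraries, so their differences from control are not independent of each other. All 6 libraries of shRNF185.1 lay above all 6 control libraries for 13 Slc genes and below them for 13, where 7.02% and 5.77% of all genes tested did so. With shRNF185.3 the numbers were 12 above and 12 below, where the shares of all genes were 7.6% and 5.7%. Leaving out the 2 libraries per group of 1 batch gave 34, 31 and 41 called Slc genes in the 3 comparisons without batch 1 (beside 15.5%, 14.9% and 18.7% of all genes tested), 82, 50 and 74 without batch 2 (beside 35.7%, 26.8% and 37.7%), and 39, 35 and 35 without batch 3 (beside 20.3%, 17.4% and 21.6%).

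**Figure D2:**
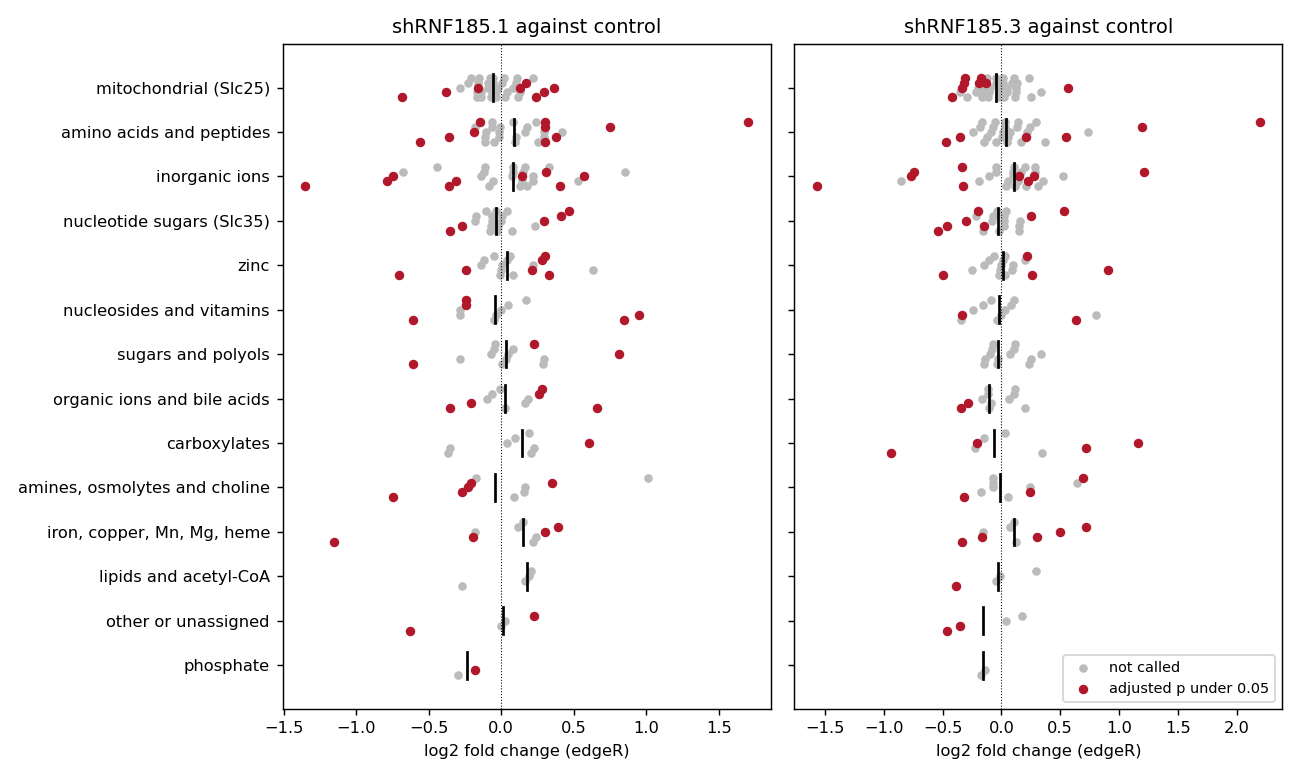
Log2 difference from control of each tested Slc gene, by substrate class, under shRNF185.1 (left) and shRNF185.3 (right); red points are genes with an adjusted p under 0.05 and black bars are class medians. The class medians lie near 0, and rises and falls occur side by side within most classes.

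The counts by class below stand beside 28.9% of all genes tested called in either direction under shRNF185.1 and 27.3% under shRNF185.3. No class was tested against these shares. Among the carriers of sodium, potassium, chloride, bicarbonate, protons, calcium and sulfate, 4 of 29 tested genes rose and 5 fell under shRNF185.1, and 4 rose and 5 fell under shRNF185.3. That is 31% of this class with each hairpin, near the share of all genes. The largest fall of any Slc gene was that of Slc5a5, which encodes the sodium iodide symporter that concentrates iodide in the thyroid. Slc5a5 (ENSMUSG00000000792, chromosome 8 from 70882889 to 70892757 on the minus strand; this and the positions below are on GRCm38) was at 5.96, 8.11 and 11.9 CPM in control, at 2.13, 3.09 and 4.9 CPM under shRNF185.1 and at 2.43, 2.71 and 3.55 CPM under shRNF185.3 (lowest, median and highest, as for all such triplets below). Every library of both hairpins lay below every control library. The log2 difference was -1.35 (standard error 0.20, adjusted p = 5.23e-05) under shRNF185.1 and -1.57 (standard error 0.20, adjusted p = 1.25e-05) under shRNF185.3, which is 2.56-fold and 2.97-fold lower. Slc12a2 encodes the sodium, potassium and chloride cotransporter of the basolateral membrane, which loads cells with chloride. Its control libraries held 182, 214 and 257 CPM, those of shRNF185.1 108, 127 and 145 CPM and those of shRNF185.3 103, 126 and 148 CPM. The hairpin groups again lay wholly below control, by a log2 difference of -0.79 (standard error 0.10, adjusted p = 1.28e-05) and -0.77 (standard error 0.10, adjusted p = 1.7e-05). Slc4a7, a sodium bicarbonate cotransporter, fell by 0.75 under shRNF185.1 and by 0.34 under shRNF185.3 on the log2 scale, and the sulfate carrier Slc26a2 fell by 0.31 and 0.33; both are named after their values were seen. Of these calls, that of Slc4a7 under shRNF185.3 was lost under 2 of 14 alternative settings, and those of Slc26a2 under 4 of 14 and 2 of 14. Slc4a8, a sodium-driven chloride bicarbonate exchanger also named after its values were seen, fell under shRNF185.1 (log2 difference -0.36) and was at -0.04 under shRNF185.3 (adjusted p = 0.54).

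The largest upward difference in this class, that of the potassium chloride cotransporter Slc12a5 under shRNF185.3 (log2 difference 1.21, adjusted p = 0.000464; 0.53 and adjusted p = 0.0949 under shRNF185.1), was seen at medians of 0.665, 1.06 and 1.56 CPM and is named after its values were seen. The chloride bicarbonate exchanger Slc4a2, the most highly expressed gene of the class per length (26.1 CPM per kb in control), rose by 0.14 and 0.23 on the log2 scale (adjusted p = 0.029 and 0.00172). The call of Slc4a2 under shRNF185.1 was lost under 7 of 14 alternative settings, with log2 differences of 0.07 with an offset for GC content and length and 0.09 without batch 3.

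**Figure D3:**
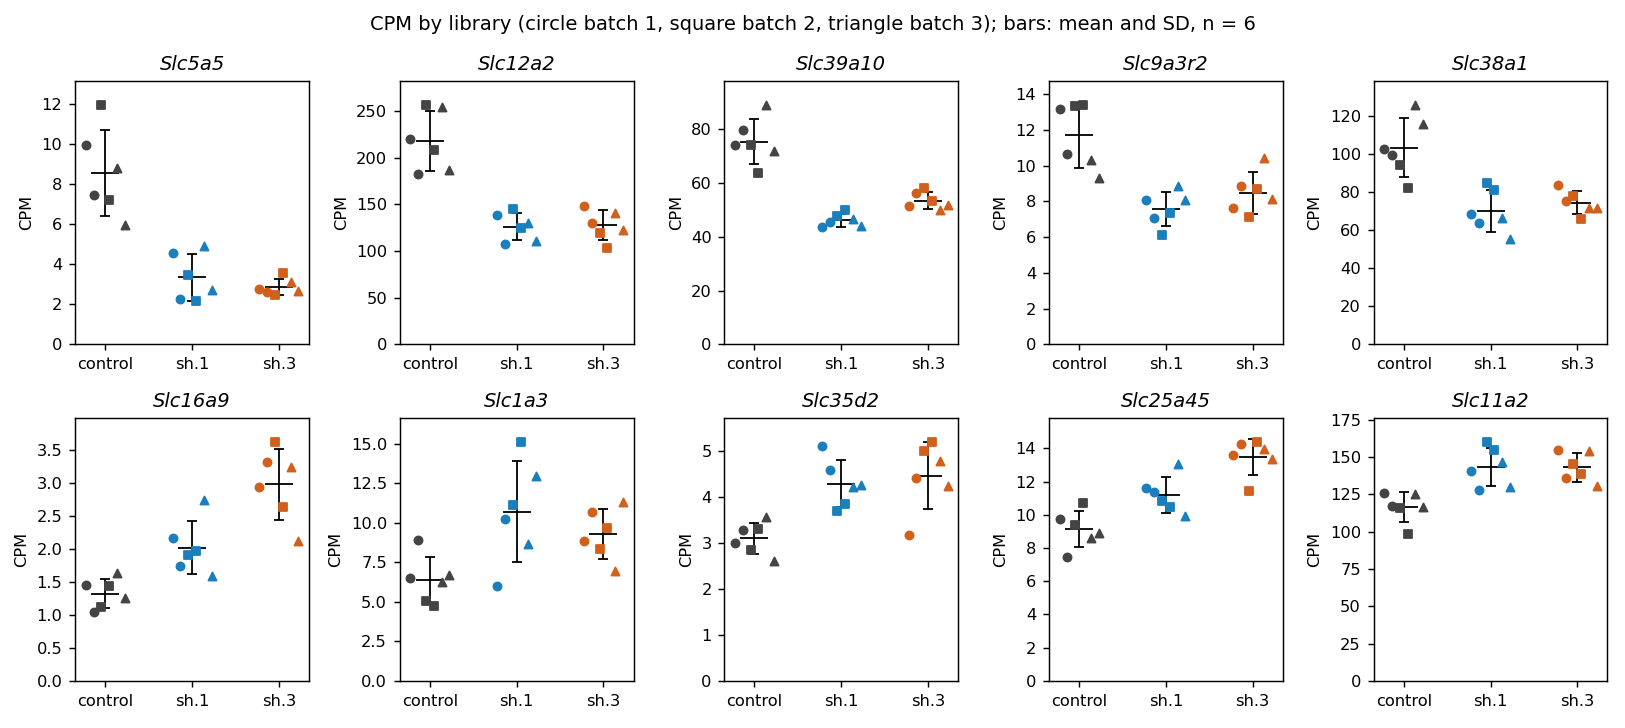
Level in CPM of 10 Slc genes in each library, on linear axes that start at 0, for control, shRNF185.1 (sh.1) and shRNF185.3 (sh.3); marker shapes give the batch, and horizontal bars with whiskers give the mean and SD of 6 libraries. Only genes averaging 50 counts or more were ranked. The top row holds the 5 of them with the largest falls with both hairpins and the bottom row the 5 with the largest rises. For Slc5a5, Slc12a2 and Slc39a10 no hairpin library reaches the lowest control library.

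Zinc carriers comprise the Slc39 importers and the Slc30 exporters. Under shRNF185.1, 4 of 17 rose and 2 fell, and under shRNF185.3, 3 rose and 1 fell. The plasma membrane importer Slc39a10 fell most. Slc39a10 (ENSMUSG00000025986, chromosome 1 from 46807544 to 46892852 on the minus strand) was at 63.8, 74.1 and 89.1 CPM in control, 43.5, 46 and 50.02 CPM under shRNF185.1 and 49.9, 52.5 and 58.1 CPM under shRNF185.3. No hairpin library overlapped with control. The log2 difference was -0.71 (standard error 0.07, adjusted p = 1.89e-07) and -0.49 (standard error 0.07, adjusted p = 1.42e-05) respectively. Slc39a9, a zinc importer of the Golgi and the plasma membrane, went the other way, from 43.2, 44.7 and 48.8 CPM in control to 50.2, 56.2 and 57.9 and 50.1, 52.3 and 55.8 CPM. Its hairpin libraries lay wholly above control, by 0.28 (adjusted p = 8.18e-05) and 0.21 (adjusted p = 0.00125) on the log2 scale. Slc39a8, described below, rose under shRNF185.1. Slc39a11 and Slc39a13 rose under shRNF185.1 alone by the test, Slc39a3 and Slc39a4 rose under shRNF185.3 alone, and the exporter Slc30a6 fell under shRNF185.1; of these 5, named after their values were seen, only Slc39a3 passed the test of the difference between the hairpins (log2 difference 0.26, adjusted p = 0.00118). The calls of Slc39a11, Slc39a13, Slc39a4 and Slc30a6 against control were lost under 2 of 14, 2 of 14, 2 of 14 and 1 of 14 alternative settings. The most abundant zinc carriers per length and the exporter Slc30a1 did not pass the test: Slc39a7, which releases zinc from the endoplasmic reticulum, had medians of 291, 292 and 292 CPM, Slc39a1 of 175, 187 and 169 CPM, and Slc30a1 of 7.36, 7.29 and 8.25 CPM in control, shRNF185.1 and shRNF185.3. Without batch 2 Slc39a1 passed under shRNF185.1, at 0.21 on the log2 scale. The summed level of the 17 genes was 1328 ± 58 CPM in control, 1357 ± 45.9 and 1313 ± 39.5 CPM with the hairpins, a difference smaller than the spread between libraries.

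Of the 9 carriers of iron, copper, manganese, magnesium and heme, 2 rose and 2 fell under shRNF185.1, and 3 rose and 2 fell under shRNF185.3. The iron genes moved in both directions. Slc40a1, which encodes ferroportin, the only known cellular iron exporter and the gene whose 5′ UTR element is printed above, fell, and Slc11a2, which encodes the proton-coupled importer of ferrous iron, rose. Slc40a1 (ENSMUSG00000025993, chromosome 1 from 45908068 to 45926523 on the minus strand) was at 4.86, 7.08 and 8.57 CPM in control, 2.93, 3.05 and 3.98 CPM under shRNF185.1 and 4.76, 5.67 and 6.48 CPM under shRNF185.3. All shRNF185.1 libraries lay below control and below shRNF185.3, whereas shRNF185.3 overlapped with control. The log2 difference from control was -1.15 (standard error 0.12, adjusted p = 1.34e-06) and -0.34 (standard error 0.12, adjusted p = 0.0418), and the difference between the hairpins was 0.81 (adjusted p = 0.00017). The call under shRNF185.3 was lost under 10 of 14 alternative settings, with a log2 difference of -0.24 without batch 1 and -0.25 without batch 2. Slc11a2 was at 98.3, 117 and 126 CPM in control, 128, 143 and 160.2 CPM under shRNF185.1 and 130.5, 142 and 155 CPM under shRNF185.3. The hairpin libraries lay above every control library, with log2 differences of 0.30 and 0.30 (adjusted p = 0.00244 and 0.0026), of which the first was 0.17 and did not pass the test without batch 2. Slc11a1, a divalent metal carrier of phagosomes, rose under shRNF185.3 (medians of 1.66 CPM in control and 2.62 CPM; log2 difference 0.72, adjusted p = 0.00106), and was at 1.4 CPM under shRNF185.1. The copper importer Slc31a1 fell by 0.19 and 0.16 on the log2 scale with the 2 hairpins, calls that were lost under 3 of 14 and 10 of 14 alternative settings, and is named after its values were seen. The heme carrier of lysosomes Slc48a1, the highest of the class per length at 32.3 CPM per kb in control, had medians of 88.1, 90.3 and 99.5 CPM and did not pass the test. Of genes that set or report the iron state, the transferrin receptor gene Tfrc had control libraries at 248, 284 and 421 CPM and shRNF185.3 libraries at 175, 199.8 and 251 CPM, a fall of 0.57 on the log2 scale (adjusted p = 0.000728). With shRNF185.1 its log2 difference was -0.27 (adjusted p = 0.0755). Ireb2, which encodes an iron regulatory protein, fell under shRNF185.1 (log2 difference -0.43, adjusted p = 0.000269), and Aco1, which encodes the other one, did not pass the test with either hairpin (0.06 and -0.08).

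Amino acid and peptide carriers are the second largest class, with 34 genes, of which 30 were tested. Under shRNF185.1, 6 rose and 4 fell, and under shRNF185.3, 4 rose and 2 fell. Slc1a3, the glial glutamate and aspartate carrier, rose most among genes averaging 50 counts or more, and Slc38a1, a sodium-coupled importer of glutamine, fell most. Slc1a3 was at 4.72, 6.38 and 8.91 CPM in control, 6.01, 10.7 and 15.1 CPM under shRNF185.1 and 6.94, 9.25 and 11.3 CPM under shRNF185.3, and the groups overlapped. The log2 difference was 0.75 (standard error 0.19, adjusted p = 0.00544) and 0.55 (standard error 0.19, adjusted p = 0.0366). Within batches 1, 2 and 3 it was 0.07, 1.4 and 0.73 under shRNF185.1, and without batch 2 the differences were 0.42 and 0.41, and neither passed the test; the second call was lost under 5 of 14 alternative settings, a batch covariate among them. Slc38a1 was at 81.9, 101 and 126 CPM in control, 55.1, 67.2 and 84.7 CPM under shRNF185.1 and 65.8, 73.5 and 83.4 CPM under shRNF185.3. Each hairpin group overlapped with control at the margin. The log2 difference was -0.56 (standard error 0.10, adjusted p = 0.000463) and -0.47 (standard error 0.10, adjusted p = 0.0023), and the second was -0.32 without batch 3 and did not pass the test. Slc36a1, a proton-coupled amino acid exporter of lysosomes, rose with both hairpins by 0.30 and 0.21, and the lysosomal histidine and peptide carrier Slc15a4 fell by 0.18 and 0.36 on the log2 scale. The call of Slc36a1 under shRNF185.3 was lost under 6 of 14 alternative settings and that of Slc15a4 under shRNF185.1 in 2 of 14. The largest log2 differences were those of the peptide carrier Slc15a2, at 1.7 and 2.2, but its medians were only 0.165 CPM in control, 0.479 and 0.816 CPM with the hairpins, with a mean of 13.5 counts per library. These 3 genes are named after their values were seen.

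The carriers that supply growing cells with essential amino acids, glutamine and cystine lay above the median of the Slc genes and, with all batches, did not pass the test with either hairpin. The heavy chain Slc3a2, which brings several light chains to the surface, was at 247, 263 and 293 CPM in control, 247, 281 and 317 CPM under shRNF185.1 and 259, 262 and 307 CPM under shRNF185.3. Its partner Slc7a5, the carrier of large neutral amino acids, had medians of 184, 178 and 181 CPM, and the cystine glutamate exchanger Slc7a11 of 42.7, 52 and 49.7 CPM. The glutamine carriers Slc1a5 and Slc38a2 had medians of 83.1, 76.8 and 77.8 CPM and of 368, 359.7 and 373 CPM. All 5 genes overlapped between the groups, with log2 differences between -0.15 and 0.08. Slc1a5 differed from control by -0.46, 0.39 and -0.27 in batches 1, 2 and 3 under shRNF185.1, and its differences varied over the batches by the test described below (adjusted p = 0.0332). Without batch 2 its log2 difference under shRNF185.1 was -0.37 and passed the test. Among their regulators, Atf4, Ddit3 and Trib3 did not pass the test with either hairpin (Atf4 log2 differences -0.09 and -0.001).

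Of 13 carriers of sugars and polyols, 2 rose and 1 fell under shRNF185.1, and none passed the test in either direction under shRNF185.3 (by edgeR, 0 of them had an unadjusted p under 0.05, and DESeq2, limma-voom and limma on log2 CPM called 0, 0 and 0). The main glucose carrier of cultured cells, Slc2a1, was at 93.5, 168 and 285 CPM in control, 120.0, 251 and 296 CPM under shRNF185.1 and 179, 198 and 311 CPM under shRNF185.3. The groups overlapped widely, and its log2 differences of 0.30 (standard error 0.25, adjusted p = 0.4) and 0.25 (standard error 0.25, adjusted p = 0.491) did not pass the test. Within batches 1, 2 and 3 the difference of Slc2a1 was 0.76, -0.97 and 1.08 under shRNF185.1 and 0.15, -0.44 and 1.16 under shRNF185.3, so its direction in batch 2 was opposite to that in the others. Without batch 2 it was 0.90 and 0.67, and both passed the test. Slc2a9, a urate carrier of the glucose carrier family, was at 1.0, 1.91 and 2.69 CPM in control, 2.62, 3.26 and 4.05 CPM under shRNF185.1 and 1.16, 1.78 and 2.45 CPM under shRNF185.3. It rose under shRNF185.1 (log2 difference 0.81, adjusted p = 0.00372) and was at -0.08 under shRNF185.3 (adjusted p = 0.798). Without batch 1 the first was 0.68 and did not pass. Slc45a3, a carrier known for its expression in prostate epithelium, was low, with medians of 2.31, 2.41 and 2.47 CPM, and did not pass the test. Txnip, which encodes a glucose-responsive inhibitor of glucose uptake, rose with both hairpins, from 69.2, 86.2 and 118 CPM in control to 91.2, 119.7 and 149 and 106, 118 and 147 CPM (log2 differences 0.46 and 0.47, adjusted p = 0.0165 and 0.0165).

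Among the 8 tested carriers of mono- and dicarboxylates, 1 passed the test under shRNF185.1, and it rose, while 2 rose and 2 fell under shRNF185.3. Slc16a9, a low-level member of the monocarboxylate carrier family, was at 1.04, 1.35 and 1.63 CPM in control, 1.59, 1.95 and 2.74 CPM under shRNF185.1 and 2.12, 3.09 and 3.63 CPM under shRNF185.3. All shRNF185.3 libraries lay above control and the shRNF185.1 libraries overlapped with it. The log2 difference was 0.60 (standard error 0.16, adjusted p = 0.00728) and 1.16 (standard error 0.16, adjusted p = 1.76e-05), and the first, at 0.59 without batch 1, then did not pass the test. Over all libraries the lactate carriers did not pass the test against control. Slc16a1, which takes up and releases lactate, had medians of 88.6, 96.2 and 71.9 CPM, and Slc16a3, the lactate exporter of glycolytic cells, of 0.695, 0.914 and 0.969 CPM in control, shRNF185.1 and shRNF185.3. Slc16a1, at 0.20 and -0.15 on the log2 scale, was called higher under shRNF185.1 in 6 of 14 alternative settings and lower under shRNF185.3 without batch 2 (-0.25). Slc16a3 passed the test without batch 2, at 0.61 and 0.68. Bsg, the chaperone of both, had medians of 633, 768 and 710.2 CPM and log2 differences of 0.21 and 0.28 that did not pass the test.

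Of 12 tested carriers of nucleosides, nucleobases and vitamins, 2 rose and 3 fell under shRNF185.1, and 1 rose and 1 fell under shRNF185.3. Slc19a2, the high-affinity thiamine carrier whose promoter is printed above, was at 18.7, 21.4 and 24.2 CPM in control, 13.1, 13.7 and 15.8 CPM under shRNF185.1 and 15.9, 17.1 and 17.7 CPM under shRNF185.3. The 3 groups did not overlap: control was highest, shRNF185.3 lay between, and shRNF185.1 was lowest. The log2 difference from control was -0.61 (standard error 0.07, adjusted p = 1.09e-06) and -0.34 (standard error 0.06, adjusted p = 0.000595). The ascorbate carrier Slc23a2, named after its values were seen, fell under shRNF185.1 (log2 difference -0.24, adjusted p = 0.0181) and was at -0.15 under shRNF185.3; the call was lost under 4 of 14 alternative settings. The folate carrier Slc19a1 had medians of 48.9, 41.2 and 46.7 CPM and did not pass the test, with batch values of -0.45, 0.98 and -0.66 under shRNF185.1. Without batch 2 its difference under shRNF185.1 was -0.56 and passed. The equilibrative nucleoside carrier Slc29a1 was at 359, 388 and 406 CPM in control, 339.9, 377 and 410.4 CPM under shRNF185.1 and 363, 383 and 400.01 CPM under shRNF185.3, with log2 differences of -0.03 and -0.006 that did not pass the test.

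Carriers of amines, osmolytes and choline numbered 10, of which 1 rose and 4 fell under shRNF185.1 and 2 rose and 1 fell under shRNF185.3. Slc44a2, a choline carrier of the plasma membrane and mitochondria, was at 157, 186 and 215 CPM in control, 202, 236 and 272 CPM under shRNF185.1 and 189.6, 213 and 246 CPM under shRNF185.3. The groups overlapped, and the log2 differences were 0.35 (adjusted p = 0.0044) and 0.24 (adjusted p = 0.0427). Neither passed the test without batch 3 (0.19 and 0.14) or without batch 1 (0.36 and 0.34), and the call under shRNF185.3 was lost under 7 of 14 alternative settings, a batch covariate and the replicate block among them. Slc18b1, a vesicular polyamine carrier, was at 14, 14.4 and 16.2 CPM in control, 10.8, 12 and 13.7 CPM under shRNF185.1 and 11.1, 11.8 and 12.4 CPM under shRNF185.3, both wholly below control, with log2 differences of -0.27 and -0.32 (adjusted p = 0.00456 and 0.00152); the first was -0.21 without batch 3 and did not pass. The taurine carrier Slc6a6, the most abundant gene of the class per length at 46.5 CPM per kb in control, fell by 0.21 on the log2 scale under shRNF185.1 (adjusted p = 0.00401), and its difference under shRNF185.3 was -0.07 (adjusted p = 0.316). Without batch 1 the first was -0.21 and did not pass.

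The smaller classes held few called genes. Of the 11 carriers of organic ions and bile acids, 3 rose and 2 fell under shRNF185.1, and the 2 that passed under shRNF185.3 fell. The lysosomal sialic acid exporter Slc17a5 was at 10.6, 12.5 and 14.7 CPM in control, 8.76, 9.87 and 11.4 CPM under shRNF185.1 and 9.81, 10.02 and 12 CPM under shRNF185.3, with overlapping groups, and fell by 0.35 and 0.28 on the log2 scale (adjusted p = 0.00591 and 0.0239). Without batch 1 its differences were -0.35 and -0.33, and neither passed the test; the second also did not pass without batch 2 or without batch 3. The phosphate carriers Slc20a1 and Slc20a2 had medians of 82.1, 61.2 and 73.9 CPM and of 104, 90.7 and 92.8 CPM. Slc20a1 differed from control under shRNF185.1 by -0.30 (adjusted p = 0.0957), and by -0.43, 0.31 and -0.78 in batches 1, 2 and 3, which varied by the test described below (adjusted p = 0.0215). Without batch 2 that difference was -0.61 and passed. Slc20a2 fell under shRNF185.1 (log2 difference -0.18, adjusted p = 0.0432), a call lost under 8 of 14 alternative settings, with a value of -0.10 without batch 1. Of the 4 lipid and acetyl-CoA carriers, Slc27a4, which takes up and activates fatty acids, and Slc33a1, which brings acetyl-CoA into the endoplasmic reticulum, did not pass the test with either hairpin over all libraries (log2 differences of 0.16 and -0.04 and of 0.19 and -0.01). With shRNF185.1, Slc27a4 was called higher without batch 2 (0.41) and Slc33a1 under 5 of 14 alternative settings, DESeq2 and leaving out batch 2 (0.29) among them. Slc27a1, another fatty acid carrier, named after its values were seen, fell under shRNF185.3 (log2 difference -0.38, adjusted p = 0.028), a call lost under 2 of 14 alternative settings.

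The Slc35 family supplies sugar nucleotides to the Golgi and the endoplasmic reticulum. Of 20 tested members, 3 rose and 2 fell under shRNF185.1, and 2 rose and 5 fell under shRNF185.3. The 21 genes summed to 894 ± 13.1 CPM in control, 883 ± 21.3 CPM under shRNF185.1 and 845 ± 9.65 CPM under shRNF185.3, and all 6 sums under shRNF185.3 (at most 862 CPM) were below the lowest in control (877 CPM). The same held for the carriers of mono- and dicarboxylates, with sums of at most 156 CPM under shRNF185.3 and at least 158 CPM in control. Slc35d2, a Golgi carrier of UDP-linked sugars, was at 2.6, 3.13 and 3.55 CPM in control, 3.69, 4.23 and 5.1 CPM under shRNF185.1 and 3.16, 4.59 and 5.19 CPM under shRNF185.3. The shRNF185.1 libraries lay above control, and 1 of the shRNF185.3 libraries lay within its range. The log2 differences were 0.47 (standard error 0.12, adjusted p = 0.00524) and 0.53 (standard error 0.12, adjusted p = 0.00215), and the first, at 0.37 without batch 1 and 0.47 without batch 3, then did not pass. Slc35b4, a carrier of UDP-xylose and UDP-N-acetylglucosamine named after its values were seen, also rose with both (0.29 and 0.25), with libraries wholly above control. Slc35a3, the Golgi carrier of UDP-N-acetylglucosamine, was at 52.2, 58.1 and 74.7 CPM in control, 51, 56.2 and 58.8 CPM under shRNF185.1 and 35.3, 40.7 and 49.4 CPM under shRNF185.3. The shRNF185.3 libraries lay below all others (log2 difference from control -0.54, adjusted p = 6.83e-05), and under shRNF185.1 the difference was -0.11 (adjusted p = 0.348). Slc35g1 fell with both hairpins (-0.27 and -0.47), and its difference under shRNF185.1, at -0.27 without batch 1 and -0.13 without batch 3, did not pass in either case or with the libraries of a group and batch summed. The most abundant member per length, Slc35a4, had medians of 133, 141 and 129 CPM and did not pass the test.

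The mitochondrial carriers form the largest class, with 39 genes and 38 tested. Under shRNF185.1, 5 rose and 3 fell, and under shRNF185.3, 1 rose and 7 fell. The class median of the log2 difference was -0.056 and -0.046, beside -0.017 and -0.019 over all genes tested. Slc25a5, which exchanges ADP and ATP across the inner membrane and was the most abundant Slc gene per length, was at 587, 708 and 785 CPM in control, 511, 664 and 716 CPM under shRNF185.1 and 495, 553 and 627 CPM under shRNF185.3. It fell under shRNF185.3 (log2 difference -0.34, standard error 0.09, adjusted p = 0.00855) and not by the test under shRNF185.1 (-0.17, adjusted p = 0.168), and the difference between the hairpins did not pass the test (adjusted p = 0.265). Without batch 3 its difference under shRNF185.3 was -0.24 and without batch 1 -0.35, and neither passed; without batch 2 the difference under shRNF185.1 was -0.31 and passed. Slc25a4, the other adenine nucleotide translocase, had medians of 523, 489 and 506 CPM, the phosphate carrier Slc25a3 of 591, 628 and 536 CPM, and the citrate carrier Slc25a1 of 69.2, 72.4 and 64.1 CPM in control, shRNF185.1 and shRNF185.3. None of these 3 passed the test with either hairpin by edgeR. Slc25a1 passed without batch 2 under shRNF185.1 (0.36). Slc25a15, which carries ornithine for the urea cycle, was at 20.6, 22.9 and 27.5 CPM in control, 16.7, 17.9 and 19.8 CPM under shRNF185.1 and 16.1, 19.4 and 20.3 CPM under shRNF185.3, both wholly below control. Its log2 difference was -0.38 (adjusted p = 0.000572) and -0.31 (adjusted p = 0.00356), and the second was -0.16 without batch 3 and did not pass. Slc25a45, a low-level member, rose with both, from 7.48, 9.13 and 10.7 CPM in control to 9.94, 11.1 and 13.1 CPM under shRNF185.1 and 11.4, 13.8 and 14.4 CPM under shRNF185.3, where all libraries lay above control. The log2 differences were 0.29 (adjusted p = 0.0147) and 0.56 (adjusted p = 7.15e-05), and the first was 0.23 without batch 1 and 0.24 without batch 3, short of the threshold. The aspartate and glutamate carriers of the malate shuttle went apart: Slc25a12 rose under shRNF185.1 (0.36, adjusted p = 1.99e-05) and Slc25a13 fell under shRNF185.3 (-0.42, adjusted p = 6.71e-05); both are named after their values were seen, and both were lower under shRNF185.3 than under shRNF185.1 (-0.26 and -0.32, adjusted p = 0.00132 and 0.00155).

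The scaffold protein genes Slc9a3r1 and Slc9a3r2 moved in opposite directions under shRNF185.1. Slc9a3r2, which tethers sodium proton exchangers and receptors under the membrane, was at 9.29, 11.9 and 13.4 CPM in control, 6.14, 7.69 and 8.88 CPM under shRNF185.1 and 7.11, 8.4 and 10.4 CPM under shRNF185.3. It fell by 0.63 (adjusted p = 0.000364) and 0.46 (adjusted p = 0.00478) on the log2 scale, with the shRNF185.1 libraries wholly below control. The second difference was -0.43 without batch 1 and -0.31 without batch 2, and did not pass in either case. Its paralog Slc9a3r1 rose under shRNF185.1, from 57.3, 63 and 68.5 CPM to 65.8, 71.4 and 85.1 CPM (log2 difference 0.23, adjusted p = 0.0156), and under shRNF185.3 it was at 64.6, 70.4 and 80.1 CPM (adjusted p = 0.0605). Without batch 3 the first was 0.12 and without batch 1 0.23, and neither passed.

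The hairpins were also compared with each other. Of 207 Slc genes, 18 were higher and 22 lower under shRNF185.3 than under shRNF185.1 (19.3%), against 14.7% of all genes tested (7.72% higher and 6.94% lower). All 6 libraries of shRNF185.3 lay above those of shRNF185.1 for 10 Slc genes and below them for 10, where 4.45% and 3.79% of all genes did so. A log2 difference of at least 1 in size was reached by 1 of the 40, against 1.27% of all genes tested. Without batches 1, 2 and 3 in turn the number called was 14, 27 and 32, beside 5.27%, 8.42% and 12.5% of all genes tested. Slc6a4, which encodes the serotonin transporter and whose promoter is printed above, differed most. It was at 3.13, 4.29 and 5.08 CPM in control, 1.59, 2.45 and 3.36 CPM under shRNF185.1 and 4.78, 6.56 and 8.64 CPM under shRNF185.3. All shRNF185.3 libraries lay above all shRNF185.1 libraries, and each hairpin group overlapped with control, on opposite sides. The difference between the hairpins was 1.44 on the log2 scale (standard error 0.20, adjusted p = 5.44e-05, 2.71-fold), and 1.48, 1.42 and 1.32 within batches 1, 2 and 3. Against control Slc6a4 was at -0.74 under shRNF185.1 (adjusted p = 0.0083) and 0.70 under shRNF185.3 (adjusted p = 0.0102), and without batch 1 these were -0.76 and 0.64 and did not pass. The other genes higher under shRNF185.3 by this rule were Slc11a1 (log2 difference 0.90, adjusted p = 0.000336), Slc40a1 and Slc16a9 (0.56, adjusted p = 0.0163). For Slc11a1 and Slc40a1 the hairpin groups did not overlap, and for Slc16a9 they did. The difference of Slc16a9 was 0.50 without batch 1 and 0.49 without batch 2, and did not pass. Among the genes lower under shRNF185.3 were Slc2a9 (-0.89, adjusted p = 0.00409), Slc39a8 (-0.45, adjusted p = 0.000145) and Slc35a3 (-0.43, adjusted p = 0.00117). Slc39a8, an importer of zinc, manganese and cadmium, was at 10.9, 11.4 and 13.1 CPM in control, 13.9, 14.3 and 16 CPM under shRNF185.1 and 9.42, 10.6 and 11.9 CPM under shRNF185.3, so that shRNF185.1 lay wholly above both other groups. Without batch 1 the differences of Slc2a9 and Slc35a3 were -0.79 and -0.39 and did not pass, while that of Slc39a8 passed under all 14 alternative settings. Against control the rise of Slc39a8 under shRNF185.1 (0.30) was 0.24 without batch 1 and did not pass.

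**Figure D4:**
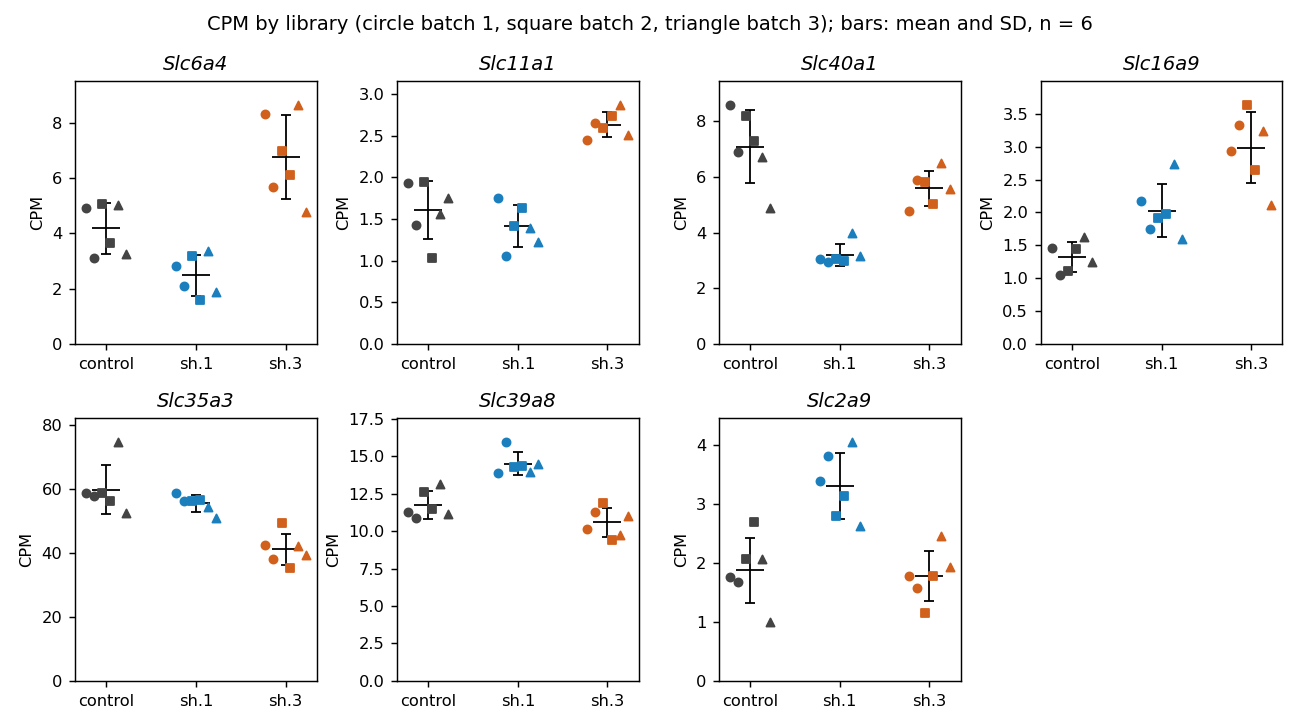
Level in CPM of 7 Slc genes among those that differed most between the hairpins, in each library, on linear axes that start at 0; sh.1 is shRNF185.1 and sh.3 is shRNF185.3, marker shapes give the batch, and bars give mean and SD of 6 libraries. In the top row shRNF185.3 is higher than shRNF185.1 and in the bottom row lower, and for Slc6a4 the hairpin groups lie on opposite sides of control.

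The differences from control were not the same in every batch for some carriers. A test of whether the differences between the groups varied over the batches, added after the within-batch values were seen, used the 9 combinations of group and batch with 2 libraries each. By edgeR's quasi-likelihood test, 24 of 207 Slc genes (11.6%) passed, against 9.81% of all genes tested, so that the Slc genes were near the share of all genes. For 20 of the 24 the sign of the difference under shRNF185.1 in batch 2 was opposite to that in both other batches, and for 9 of the 24 this held under shRNF185.3. These 24 were picked for differing between batches. The same count was not made over all genes that passed, so whether the pattern is particular to Slc genes is not known. The 5 genes with the smallest p-values follow; Slc35a2 and Slc37a4 among them are named after their values were seen. Slc35a2, the Golgi carrier of UDP-galactose, differed from control under shRNF185.1 by 0.35, -0.60 and 1.02 on the log2 scale in batches 1, 2 and 3 (adjusted p = 0.000226 for the variation over batches). The citrate carrier Slc25a1 differed by 0.06, -0.38 and 0.67 (adjusted p = 0.002) and Slc37a4, which brings glucose phosphate into the endoplasmic reticulum, by 0.17, -0.99 and 0.58 (adjusted p = 0.00219). Slc2a1 (adjusted p = 0.00264) and the folate carrier Slc19a1 (adjusted p = 0.00304) followed, the former lower and the latter higher than control in batch 2. In control libraries of batches 1, 2 and 3, Slc2a1 was at 173 and 164, 236 and 285, and 93.5 and 155 CPM, and under shRNF185.1 at 272 and 296, 146 and 120.0, and 296 and 230.1 CPM. The control libraries of batch 2 were thus the highest of their group and the shRNF185.1 libraries of batch 2 the lowest of theirs. The labels name the deposited tables for ComBat-Seq, a method that adjusts counts for batch, and its part in these differences was not tested. The genes with the largest differences with both hairpins were picked from these same libraries, so signs kept within batches are no separate support for them. The falls of Slc5a5, Slc12a2, Slc39a10 and Slc9a3r2 kept their sign in each of the 3 batches with both hairpins. The same held for the rises of Slc16a9, Slc1a3, Slc35d2, Slc25a45 and Slc11a2, although Slc1a3 differed by only 0.07 in batch 1 under shRNF185.1. Slc9a3r2 differed by only -0.08 in batch 3 under shRNF185.3, beside -0.53 and -0.75 in batches 1 and 2. Slc38a1 kept its sign as well, but its differences varied over the batches by the test (adjusted p = 0.0133).

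**Figure D5:**
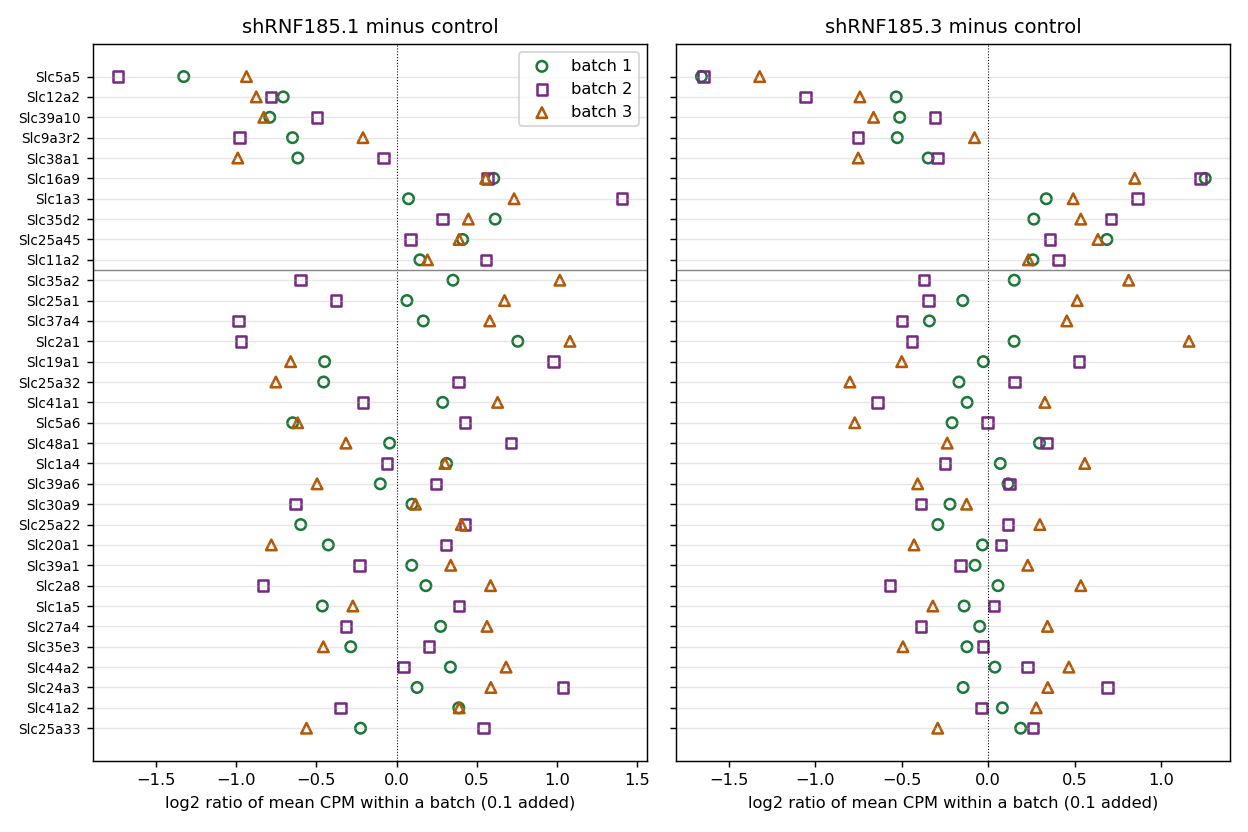
Log2 ratio of mean CPM to control within each batch (2 libraries per group and batch, 0.1 CPM added to both means), under shRNF185.1 on the left and shRNF185.3 on the right. Above the grey line are the 10 genes with the largest differences with both hairpins, among genes averaging 50 counts or more. Below it are the other Slc genes whose differences varied over the batches. There, most batch 2 points (squares) stand on the other side of 0 from those of batches 1 and 3 under shRNF185.1.

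Genes that work beside the named carriers were looked up from lists drawn up with earlier results of these data known. For each list below, the share of all genes tested that was called in either direction was 28.9% under shRNF185.1 and 27.3% under shRNF185.3. Of 41 carriers of the same superfamily with other symbols, 28 were tested. Of these, 7 rose and 7 fell under shRNF185.1 and 6 rose and 8 fell under shRNF185.3. The mitochondrial Sfxn family gave 4 of the rises. Sfxn2, Sfxn3, Sfxn4 and Sfxn5 rose with both hairpins, by between 0.15 and 0.81 on the log2 scale, while Sfxn1, the most abundant, was at 0.003 and -0.02. The organic anion carrier Slco3a1 rose from 43.3, 46.9 and 53.6 CPM to 60.6, 66.8 and 75.5 and 63.1, 66.4 and 70.6 CPM with the hairpins (log2 differences 0.53 and 0.50, adjusted p = 5.03e-06 and 9.74e-06). Spns2, the exporter of sphingosine phosphate, fell from 7.34, 9.07 and 12.5 CPM to 2.91, 4.24 and 5.18 and 3.79, 4.77 and 5.78 CPM (-1.19 and -0.99, adjusted p = 1.07e-05 and 7.42e-05). The magnesium carriers Nipa2 and Nipal1, the heme exporter Flvcr1 and the mitochondrial pyruvate carrier subunit Mpc1 fell with both hairpins as well (-0.45 and -0.28, -0.93 and -0.95, -0.29 and -0.36, and -0.20 and -0.15). Of 21 listed names of partners of carriers and subunits of the sodium pump, 19 matched a gene. Of these, 15 were tested, with 4 rises and 4 falls under shRNF185.1 and 1 rise and 4 falls under shRNF185.3. The 15 include Slc4a1ap, Slc9a3r1 and Slc9a3r2, which are counted among the Slc genes above as well. Slc9a3r1 is thus among the rises under shRNF185.1, and Slc9a3r2 is among the falls with both hairpins. The sodium pump subunit Atp1b1 fell under shRNF185.1, from 42.5, 64.8 and 72.5 CPM to 30.8, 34.7 and 47 CPM (log2 difference -0.78, adjusted p = 6.53e-05), and was at 48.7, 58.5 and 67.1 CPM under shRNF185.3, while Atp1b3 fell with both (-0.21 and -0.19). Kinases known to activate the cotransporter encoded by Slc12a2 were also listed: Oxsr1 fell under shRNF185.3 (-0.35, adjusted p = 3.16e-06), Stk39 fell under shRNF185.1 (-0.49, adjusted p = 0.000365) and Wnk1, which acts before them, rose under shRNF185.1 (0.27, adjusted p = 0.00506). Of 18 regulators of Slc genes, 16 were tested, and 1 rose and 1 fell under shRNF185.1 while the 2 that passed under shRNF185.3 fell. Nfe2l2, which encodes the activator of antioxidant genes such as Slc7a11, was higher under shRNF185.1 and lower under shRNF185.3 (0.20 and -0.18, adjusted p = 0.000455 and 0.00159). Hif1a, Myc and the zinc sensor gene Mtf1 did not pass the test with either hairpin, and neither did the metallothionein genes Mt1 and Mt2.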

How the data were processed

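The libraries were polyadenylated RNA made with a directional kit and read from one end, per the labels. Per the submitters' processing notes, cutadapt 2.3, STAR 2.7.0d, RSEM 1.3.1 and the mm10 build were used. The labels name the deposited tables for ComBat-Seq, which adjusts counts for batch; its settings, and whether it was told the groups, are not given in the sources used here. Of the deposited expected count values, 0.466% are not whole, so counts were rounded, although whole counts had been assumed when the tests were set. The deposited CPM values are a scaled signal whose sums run from 969986 to 1026394 per library; they match counts divided by an effective library size. The annotation and strand setting are not given in the sources used here.

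Genes were filtered with a minimum count of 10 and scaled by TMM. The 18 libraries were fitted together by group with edgeR 4.0.16 in R 4.3.3 (quasi-likelihood test, Benjamini-Hochberg adjustment over 14309 genes), with DESeq2 1.42.0 and limma 3.58.1 as alternatives. This fit had no batch term and took no account of the batch adjustment already made, so its adjusted p-values may be too small. With a batch covariate, 38 gene-level values lost the call and 790 stayed on their side of the threshold. The test of variation over batches was added after seeing the data.

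Genes named singly were a fixed set, the highest of each of 14 substrate classes per length, the largest rise and fall shared by both hairpins in each class and the 5 largest of each kind over all, and the 4 largest of each direction between hairpins; ranked genes had to average 50 counts or more. Some genes that this rule or the marker lists name are not reported here. The members and lists were chosen with earlier results of these data known. Intervals and floors of 3 counts cover counting error only.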

Additional observations from a re-analysis of the deposited data

Results flagged for a closer look

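In 8 of 153 groups of 6 libraries, over 51 named genes, the highest or lowest library stood apart from the others by more than Dixon's 95% critical value of 0.625; chance gives about 7.65 such groups. Slc11a2 was lowest in control replicate 4, at 98.3 CPM against 116 CPM in the nearest library. Slc25a45 was lowest in shRNF185.3 replicate 3, at 11.4 CPM against 13.3 CPM in the nearest library. Slc33a1 was highest in shRNF185.3 replicate 3, at 52.7 CPM against 41.7 CPM in the nearest library. Slc35a3 was highest in control replicate 5, at 74.7 CPM against 58.6 CPM in the nearest library. Slc35a4 was highest in shRNF185.3 replicate 2, at 153 CPM against 133 CPM in the nearest library. Slc35g1 was highest in shRNF185.3 replicate 3, at 17.7 CPM against 16.1 CPM in the nearest library. Slc39a8 was highest in shRNF185.1 replicate 2, at 16 CPM against 14.5 CPM in the nearest library. Slc40a1 was highest in shRNF185.1 replicate 5, at 3.98 CPM against 3.15 CPM in the nearest library.

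For 12 named genes the difference between the hairpins itself passed edgeR's quasi-likelihood test with Benjamini-Hochberg adjustment. Of these, Slc6a4, Slc11a1, Slc40a1, Slc16a9, Slc2a9, Slc39a8 and Slc35a3 fall under the naming rule that used this same comparison. The number therefore cannot be set against the 14.7% of all genes tested that passed. On the log2 scale, as shRNF185.3 minus shRNF185.1, the genes higher with shRNF185.3 were Slc6a4 (1.44), Slc11a1 (0.90), Slc40a1 (0.81), Slc16a9 (0.56), Slc19a2 (0.27), Slc25a45 (0.27), Slc39a10 (0.22). The genes lower with shRNF185.3 were Slc2a9 (-0.89), Slc39a8 (-0.45), Slc35a3 (-0.43), Slc16a1 (-0.36), Slc10a3 (-0.30). Of 14 alternative settings, the call was lost under 2 for Slc16a9, 1 for Slc19a2, 8 for Slc25a45, 6 for Slc39a10, 1 for Slc2a9, 1 for Slc35a3, 1 for Slc16a1, 3 for Slc10a3. For Slc25a45 and Slc39a10 these include the batch covariate and the replicate block, and for Slc10a3 they are the omission of each batch.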

How the results depend on the processing

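Over 14 alternative settings, 10851 of 11588 gene-level values kept their side of the threshold, 504 lost the call and 233 gained one. No value that was called in the main fit or in the alternative changed sign. Values called in neither could change sign and still count among the 10851. The counts of Slc genes called with shRNF185.1, with shRNF185.3, with the mean of both and between the hairpins were 64, 53, 63 and 40. They were 3, 5, 2 and 1 when a log2 difference of at least 1 was also required, which by construction counts fewer genes. Without batch 1 they were 34, 31, 41 and 14, without batch 2 they were 82, 50, 74 and 27, and without batch 3 they were 39, 35, 35 and 32; the cause was not tested. The number of Slc genes whose differences varied over batches was 24, and 48 with no filter beyond 1 count, where the cause was not tested. With the replicate block the counts called were 60, 50, 57 and 32, beside 26.6%, 25%, 30.1% and 13.8% of all genes tested. A batch covariate gave 52, 43, 56 and 31, beside 24.9%, 22.8%, 28.2% and 11.4%. Summing the libraries of a group and batch gave 62, 47, 56 and 29, beside 22.6%, 20.1%, 24.5% and 11.7%. The mean correlation of deviations over 18 same-numbered pairs was -0.0144 across 9671 genes. Single pairs ran from -0.628 to 0.705, and 4 pairs exceeded 0.1. Same-numbered libraries share a batch, and the labels name the counts as already adjusted for batch. These values therefore do not show whether the replicate numbers pair the libraries. Genes with few counts, and genes that share reads with others, are measured with less certainty.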
